A study of Mus musculus with 12 samples.

Results

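Transcripts of 9 genes typical of neutrophils were followed in whole mouse liver: S100a8, S100a9, Ngp, Camp, Mpo, Csf3r, Mmp8, Mmp9 and Ltf. The genes were taken as a list by name, and every array probe that carried one of these names was used, which gave 11 of the 41174 probes on the array, with 2 probes each for Ltf and Mmp9. Of the 9 genes, 8 passed the filter on dim probes and were tested among 19337 genes, and Ngp did not pass. The livers came from 12 adrenalectomized C57BL/6 mice aged 11 weeks, 3 in each of 4 groups: males given dexamethasone, females given dexamethasone, males given vehicle and females given vehicle. Dexamethasone, a synthetic glucocorticoid, was injected intraperitoneally at 1 mg/kg, the vehicle was phosphate-buffered saline, and livers were taken 6 h after dexamethasone. All females were in diestrus 1, and all 12 animals, those given vehicle included, lacked adrenal glands, the main source of their own glucocorticoid. Each animal was read on 1 single-colour Agilent array. The values are transcript levels of whole tissue, so a change in the number of neutrophils in the liver and a change in RNA per neutrophil cannot be told apart.

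Neutrophils are short-lived white blood cells that form in the bone marrow, circulate in blood and lodge in the small vessels of the liver. They load several kinds of granule in sequence while they mature: azurophil granules, which hold myeloperoxidase (Mpo), then specific granules, which hold lactoferrin (Ltf), the cathelicidin peptide precursor (Camp) and, in mice, the neutrophilic granule protein (Ngp), and last the gelatinase granules, which hold Mmp9. Transcripts of the azurophil and specific granule proteins are made mostly in the marrow, whereas S100a8 and S100a9, the subunits of the cytosolic protein calprotectin, stay abundant in circulating neutrophils. Glucocorticoids are known to raise the number of neutrophils in blood.

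Probes of 60 bases carried the signal. The S100a8 probe is printed because S100a8 had the widest range of the 9 genes, the Camp probe because Camp was near background on most arrays, and the Ltf probes because they did not give the same order of arrays. The S100a8 probe lies on chromosome 3 at chr3:90800058-90800117 (plus strand), the Camp probe at chr9:109544107-109544166 (minus strand), and the first Ltf probe at chr9:110738071-110738130 (plus strand), all on mm7, the build of the array's design. The second Ltf probe spans chr9:110733462-110736512 (plus strand), 3051 bases for a 60-base probe, so it joins separate stretches of the genome. The design names the gene of each probe but not its exon.
S100a8: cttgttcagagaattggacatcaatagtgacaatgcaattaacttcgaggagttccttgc
Camp: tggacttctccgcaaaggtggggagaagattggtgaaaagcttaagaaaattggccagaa
Ltf, first probe: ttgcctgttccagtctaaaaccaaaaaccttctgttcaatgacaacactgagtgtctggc
Ltf, second probe: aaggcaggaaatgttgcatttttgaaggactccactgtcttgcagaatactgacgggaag

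Levels are log2 signals relative to the array's own upper quartile (75th percentile), so that 0 is a signal at that quartile. The upper quartile before scaling was 578 to 1251 intensity units, and the flag for signals well above background was set on 65.7 to 72.2% of an array's spots. The correlation over genes was 0.984 to 0.994 between arrays of a group and 0.954 to 0.986 between groups. The 8 tested hepatocyte markers were well above background on all 12 arrays. Of 9 tested glucocorticoid response genes, 8 were higher after dexamethasone in the mean of both sexes, among them Fkbp5, a co-chaperone of the glucocorticoid receptor (log2 4.15 ± 0.30, limma, adjusted p = 1.29e-05). The 12 arrays lay on 3 slides. Within a sex, the dexamethasone arrays of a slide always sat at higher slide positions than the vehicle arrays, and all 3 male vehicle arrays were at position 1, so treatment and position cannot be told apart. With 3 arrays in each group, the number of arrays limits the precision.

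S100a8 and S100a9 were low in 2 of 3 dexamethasone-treated males and high in the other, and neither passed the test. The S100a9 level was -3.27, -1.45 and 1.75 in dexamethasone-treated males 1, 2 and 3, against 1.35, 1.48 and -0.27 in vehicle-treated males 1, 2 and 3. Dexamethasone-treated males 1 and 2 therefore lay below every vehicle-treated male, and dexamethasone-treated male 3 lay above all of them. In females S100a9 was 0.49, -1.66 and 1.02 after dexamethasone, against 1.02, 0.79 and 1.16 after vehicle. Here a single dexamethasone-treated animal, female 2, stood far below the vehicle-treated females, and the groups overlapped. On the signal scale S100a9 ranged from 81.7 to 2256 units in dexamethasone-treated males, a 32.4-fold range, against 734 to 2339 units in vehicle-treated males, and its SD was 2.54 and 0.97 log2 units in these groups.

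S100a8 ordered the animals as S100a9 did in 3 of the 4 groups. Its level was -8.23, -5.76 and -2.18 in dexamethasone-treated males, against -2.58, -2.47 and -4.45 in vehicle-treated males. On the arrays of dexamethasone-treated males 1 and 2 the S100a8 probe was not well above background, so those values are near the lower limit of measurement. Dexamethasone-treated females were at -3.16, -5.31 and -2.75, against -3.11, -3.03 and -2.87 in vehicle-treated females, a group whose SD of 0.12 was the smallest of the 4. The log2 difference between dexamethasone and vehicle in males was -2.22 ± 1.25 (SE) for S100a8 and -1.84 ± 1.09 for S100a9 (n = 3 each). Neither passed the threshold in limma fitted across all genes (adjusted p = 0.238 and 0.262). In females the differences were -0.74 ± 1.25 and -1.04 ± 1.09 (limma, adjusted p = 0.760 and 0.593), and the mean effects over both sexes were -1.48 ± 0.88 and -1.44 ± 0.77 (limma, adjusted p = 0.228 and 0.179). Male 3 of the dexamethasone group decides the call. Without it, no dexamethasone-treated male was well above background for S100a8, which was then at least 7.39-fold lower than in vehicle-treated males (limma, adjusted p = 0.0189), a bound taken from the dimmest signals well above background. S100a9 was lower without that animal by log2 -3.21 in males (limma, adjusted p = 0.0255) and by -2.13 in the mean of both sexes (limma, adjusted p = 0.0157). Male 3 was left out as the animal that went against the fall, so these values of S100a8 and S100a9 are no support for a change. Normexp background correction models the local background of each spot, and here added an offset of 50 intensity units to every signal. With it the S100a8 differences turned to 0.39 in males, 0.18 in females and 0.28 in the mean of both sexes. On slide 1, which held 1 animal of each male group, the male S100a9 difference was -2.79, and on slide 3, which held dexamethasone-treated males 1 and 3, it was -2.24. Female differences of S100a9 were -2.45 within slide 1 and -0.27 within slide 2.

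**Figure D1:**
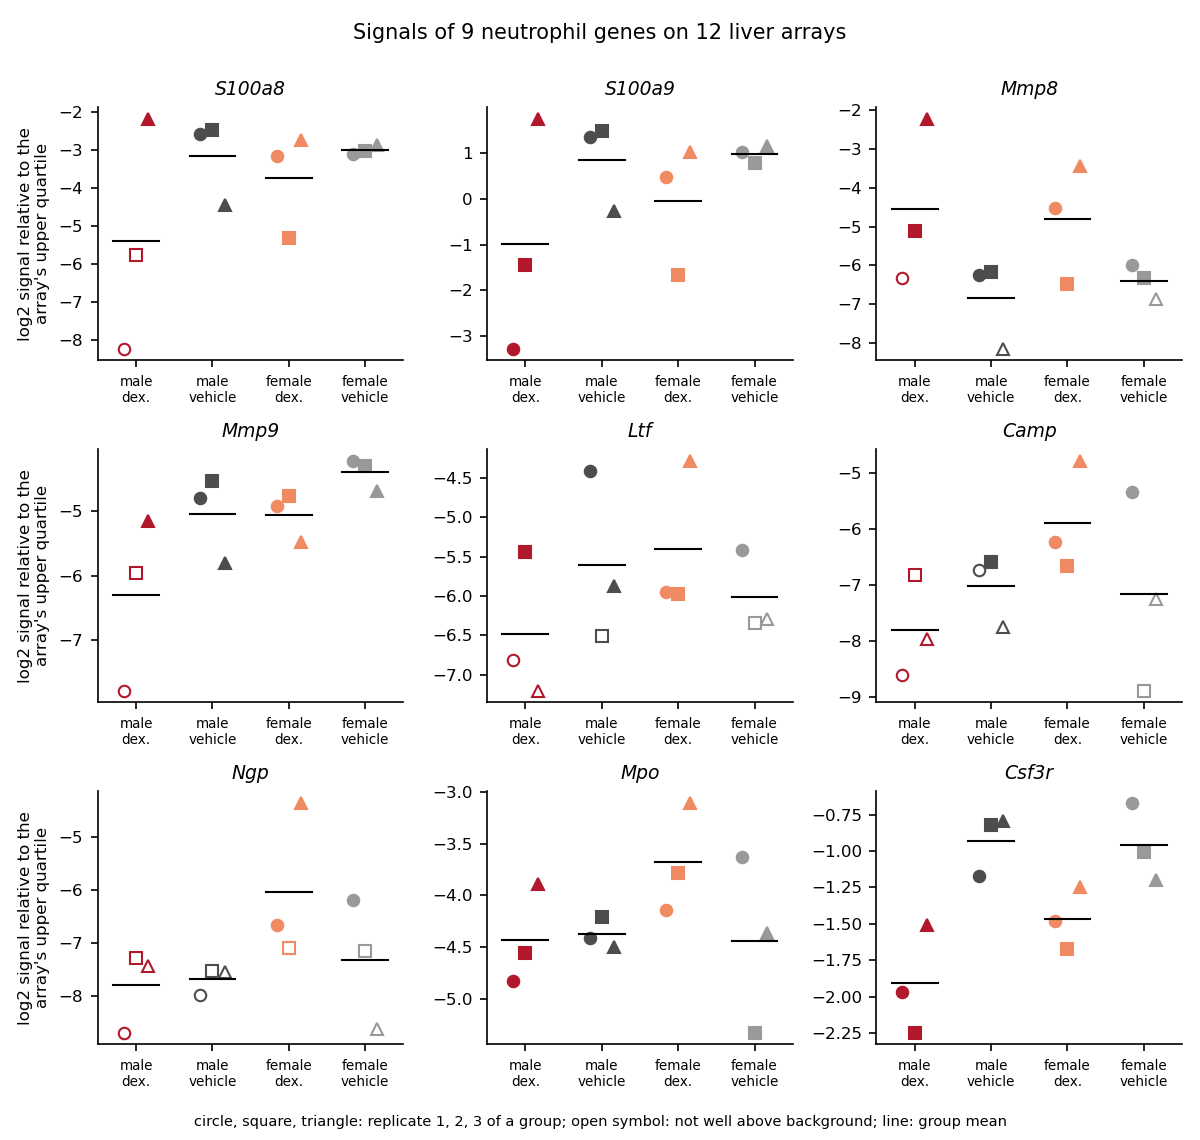
Log2 signal of each of the 9 genes relative to the array's upper quartile, 1 symbol per animal in 4 groups, with dexamethasone (dex.) left of vehicle for each sex, and a line at the group mean. Open symbols were not well above background. S100a8, S100a9 and Mmp8 spread widely among dexamethasone-treated males, while Csf3r was lower in every dexamethasone-treated animal than in any vehicle-treated animal. For Ltf and Mmp9 the brighter probe is shown, and each panel has its own axis.

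Mmp8, the neutrophil collagenase of the specific granules, had higher means after dexamethasone, the opposite side from S100a8 and S100a9. Its level was -6.33, -5.11 and -2.22 in dexamethasone-treated males, against -6.24, -6.16 and -8.15 in vehicle-treated males. In females it was -4.52, -6.47 and -3.43 after dexamethasone, against -5.98, -6.33 and -6.87 after vehicle. Males 2 and 3 and females 1 and 3 of the dexamethasone groups exceeded every vehicle-treated animal of their sex, and dexamethasone-treated male 1 and female 2, the animals lowest in S100a9 within their groups, did not. The difference was 2.30 ± 1.03 in males (limma, adjusted p = 0.136), 1.59 ± 1.03 in females (limma, adjusted p = 0.352) and 1.94 ± 0.72 in the mean of both sexes (limma, adjusted p = 0.0611), so Mmp8 did not pass the threshold. It passed when dexamethasone-treated male 1 or female 2 was left out (2.39 and 2.36, limma, adjusted p = 0.0253 and 0.0296), and these are the 2 dexamethasone-treated animals that did not exceed the vehicle-treated ones, so those values are no support for a change. The Mmp8 probe was well above background on 9 of 12 arrays, the exceptions being dexamethasone-treated male 1, vehicle-treated male 3 and vehicle-treated female 3. Mmp8 entered the test only because all 3 dexamethasone-treated females were above background.

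Mmp9, the gelatinase of the last-formed granules, had lower means after dexamethasone on both of its probes. The brighter probe lies at chr2:164695457-164695516 (mm7, plus strand). It read -7.78, -5.96 and -5.16 in dexamethasone-treated males, against -4.81, -4.54 and -5.81 in vehicle-treated males. In females it read -4.92, -4.77 and -5.48 after dexamethasone, against -4.22, -4.31 and -4.69 after vehicle, and the female groups did not overlap. The 2 dimmest values, those of dexamethasone-treated males 1 and 2, were not well above background. The mean effect was -0.95 ± 0.40 (limma, adjusted p = 0.0904). The second Mmp9 probe, at chr2:164695774-164695833, was printed at 10 spots on each array. It read -7.67, -7.47 and -6.29 in dexamethasone-treated males, against -5.74, -5.99 and -6.30 in vehicle-treated males, where only male 3 of each group overlapped. It read -6.10, -5.78 and -6.89 in dexamethasone-treated females, against -5.29, -5.25 and -5.63 in vehicle-treated females, with no overlap. In a fit with every probe as its own row, the 10-spot probe was lower by -1.14 ± 0.36 in males (limma, adjusted p = 0.0458 over 28842 probes) and by -1.001 ± 0.26 in the mean of both sexes (limma, adjusted p = 0.0123), but not past the threshold in females (-0.87 ± 0.36, limma, adjusted p = 0.146). In that fit 22.6% of all probes passed in males, 13.7% in females and 34.2% in the mean of both sexes. The direction depended on the background correction: with normexp the 10-spot probe had differences of 0.90 in males, 0.72 in females and 0.81 in the mean, and the brighter probe had 0.78, 0.66 and 0.72.

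The specific granule transcripts Ltf, Camp and Ngp were close to background, and none passed the threshold. The first Ltf probe read -6.81, -5.44 and -7.20 in dexamethasone-treated males, against -4.42, -6.51 and -5.88 in vehicle-treated males. In females it read -5.95, -5.97 and -4.28 after dexamethasone, against -5.41, -6.35 and -6.29 after vehicle. The groups overlapped in both sexes, and the mean effect was -0.13 ± 0.45 (limma, adjusted p = 0.852). The second Ltf probe read -6.22, -8.31 and -6.64 in dexamethasone-treated males and -7.03, -5.53 and -6.39 in vehicle-treated males. The 2 probes disagreed on which of the dexamethasone-treated males was lowest and on the sign of the mean effect, which was 0.32 ± 0.67 for the second probe. Each Ltf probe was well above background on 7 of 12 arrays.

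Camp was well above background on 5 of 12 arrays: all 3 dexamethasone-treated females, vehicle-treated male 2 and vehicle-treated female 1. Its level was -6.23, -6.67 and -4.77 in dexamethasone-treated females, against -5.33, -8.89 and -7.25 in vehicle-treated females. These groups overlapped, and the female difference was 1.27 ± 0.83 (limma, adjusted p = 0.357). In males Camp was not well above background on any dexamethasone array and on 1 of 3 vehicle arrays, so no male fold change is given. Ngp was well above background on only 3 arrays, those of dexamethasone-treated females 1 and 3 and vehicle-treated female 1. It read -6.66, -7.10 and -4.37 in dexamethasone-treated females, against -6.18, -7.15 and -8.62 in vehicle-treated females. The Ngp and Camp values were both highest in dexamethasone-treated female 3. In that animal Ltf was also highest among the females on both probes, and Mpo was the highest of all 12 animals.

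Mpo, the azurophil granule peroxidase, was measured well above background on all 12 arrays. Its level was -4.83, -4.56 and -3.89 in dexamethasone-treated males, against -4.42, -4.21 and -4.50 in vehicle-treated males, with a difference of -0.05 ± 0.41 and a 95% interval from -0.96 to 0.85 (limma, adjusted p = 0.947). In females it was -4.14, -3.78 and -3.10 after dexamethasone, against -3.63, -5.33 and -4.36 after vehicle, a difference of 0.76 ± 0.41 (limma, adjusted p = 0.256). The groups overlapped in both sexes. Within slides the female difference was 1.55 on slide 1 and 0.00377 on slide 2.

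Csf3r, the receptor for granulocyte colony-stimulating factor, was the 1 gene of the 9 that fell past the threshold in the brightest-probe fit. Its level was -1.97, -2.25 and -1.51 in dexamethasone-treated males, against -1.17, -0.82 and -0.80 in vehicle-treated males. In females it was -1.48, -1.67 and -1.24 after dexamethasone, against -0.67, -1.01 and -1.20 after vehicle. All 6 dexamethasone-treated animals lay below all 6 vehicle-treated animals, by the narrowest of margins between dexamethasone-treated and vehicle-treated females 3. The difference was -0.98 ± 0.21 in males (limma, adjusted p = 0.00926) and -0.74 ± 0.15 in the mean of both sexes (limma, adjusted p = 0.00384). In females it was -0.50 ± 0.21 and did not pass (limma, adjusted p = 0.151). The female effect minus the male effect was 0.47 ± 0.30, with an interval from -0.20 to 1.14 (limma, adjusted p = 1.00), so a difference between the sexes was not shown. Within slides the male difference was -1.07 and -0.92 and the female difference -0.66 and -0.69. With normexp background correction the mean effect was -0.38 and did not pass (limma, adjusted p = 0.174).

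**Figure D2:**
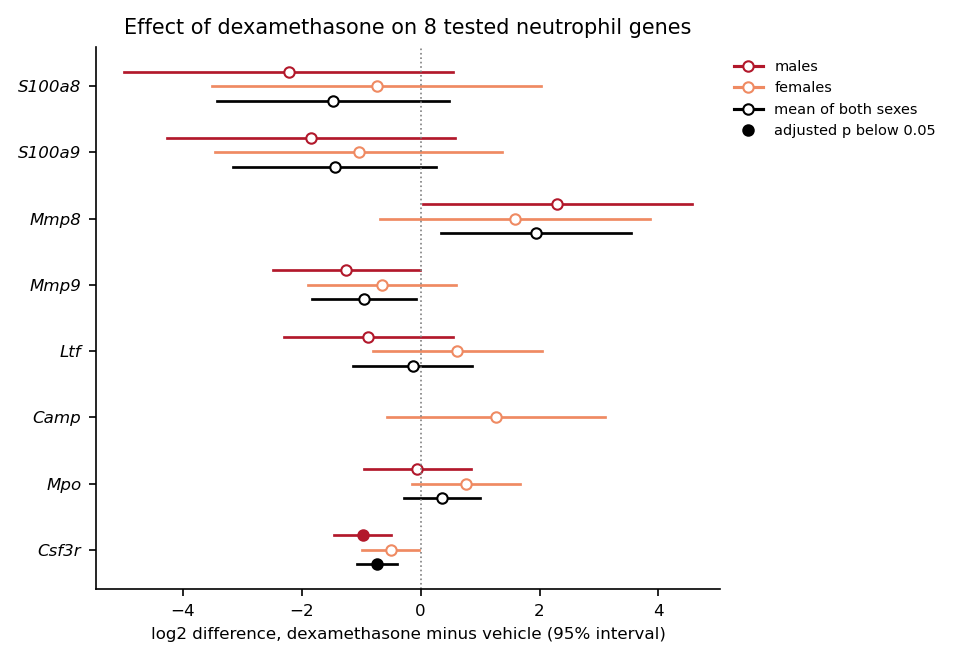
Log2 difference between dexamethasone and vehicle with its 95% interval from limma for each tested gene, in males, in females and in the mean of both sexes (n = 3 animals per group). The filled points, Csf3r in males (-0.98) and in the mean of both sexes (-0.74), had an adjusted p below 0.05. Camp is shown for females alone because no dexamethasone-treated male was well above background.

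Counted over the list, dexamethasone lowered 1 of the 8 tested genes in males (Csf3r) and raised none, where 22.5% of all genes tested were called in either direction and 12.1% were called lower. In females 0 of 8 were called by limma, with 1 at an unadjusted p under 0.05, against 13.7% of all genes called. In the mean of both sexes 1 of 8 was called lower and 0 higher, against 34.1% of all genes called and 17.4% called lower. In males the groups did not overlap for 1 gene (Csf3r, lower), against 21.5% of all genes lower without overlap. In females they did not overlap for 2 genes (Csf3r and Mmp9, both lower), against 15.4% of all genes, and all 6 dexamethasone-treated animals lay below all 6 vehicle-treated animals for 1 gene, against 7.12%. The median difference over the 8 genes was -0.93 in males, 0.05 in females and -0.44 in the mean of both sexes, beside 0.01, 0.02 and 0.02 over all genes tested. The 8 genes passed the filter partly through the group in which they were bright, since Camp, Ltf and Mmp8 were above background throughout in dexamethasone-treated females alone, so these counts and medians are descriptions. The standard errors of S100a8, S100a9 and Mmp8 within a sex were 1.03 to 1.25 log2 units, against 0.21 for Csf3r.

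The female and male responses were not shown to differ. The test of the female effect minus the male effect called 0 of 8 genes by limma, with 0 at an unadjusted p under 0.05, against 0.00517% of all genes called. Under dexamethasone, females had higher means than males for 7 of the 8 genes, with a median difference of 1.01, beside -0.05 over all genes tested. Of these 8 genes 0 were called by limma (5.78% of all genes were), with 2 at an unadjusted p under 0.05. Camp, Ltf and Mmp8 passed the filter through dexamethasone-treated females alone, the higher side for Camp and Ltf, so this count and median are descriptions. Camp was the 1 gene whose groups did not overlap between the sexes under dexamethasone (11.7% of all genes were higher without overlap). Dexamethasone-treated females averaged -5.89 ± 0.99 and dexamethasone-treated males -7.80 ± 0.91 (SD, n = 3 each). Camp entered the test only through dexamethasone-treated females, so this separation is no support for a difference between the sexes. No dexamethasone-treated male was above background, so Camp has only a bound on group means, at least 1.31-fold higher in dexamethasone-treated females. The Camp difference did not pass (limma, adjusted p = 0.209). Ngp, which was not tested, was at least 1.18-fold higher in dexamethasone-treated females than in dexamethasone-treated males by the same bound. Neither bound holds for every female. The limit was the dimmest signal well above background on each male array. Camp in dexamethasone-treated female 2 (-6.67) and Ngp in dexamethasone-treated females 1 and 2 (-6.66 and -7.10) lay below all of these limits. Of the dexamethasone arrays, those of males lay on slides 1 and 3 and those of females on slides 1 and 2. Sex and slide therefore cannot be fully told apart under dexamethasone. On slide 1, with 1 animal of each sex, the female minus male difference was 1.19 for Mmp9, 0.78 for Mpo and 0.57 for Csf3r. It was 0.44 for S100a8 and 0.15 for Camp, but -0.22 for S100a9, -0.53 for Ltf and -1.36 for Mmp8. Under vehicle, females and males differed by -0.42 to 0.65 over the 8 genes, and 0 were called by limma (1.98% of all genes were), with 0 at an unadjusted p under 0.05.

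S100a8, S100a9 and Mmp8 had the highest correlations with each other among animals of the same group, and no pair passed the adjustment. Deviations from the group means over the 12 arrays were correlated for all 36 pairs of the 9 genes, with exact permutation within groups (1296 arrangements, two-sided) and Benjamini-Hochberg adjustment over the 36 pairs. For S100a8 and S100a9 Pearson's r was 0.994 (exact permutation p = 0.00309, adjusted p = 0.0972) and Spearman's rho was 0.986 (exact permutation p = 0.00231, adjusted p = 0.0833). For S100a9 and Mmp8 r was 0.967 (exact permutation p = 0.00540, adjusted p = 0.0972) and rho was 0.951 (exact permutation p = 0.00540, adjusted p = 0.0972). For S100a8 and Mmp8 r was 0.951 (exact permutation p = 0.00849, adjusted p = 0.102) and rho was 0.951 (exact permutation p = 0.00849, adjusted p = 0.102). Without dexamethasone-treated males 1 and 3, the arrays farthest from the median, r was 0.991 for S100a8 and S100a9, 0.948 for S100a9 and Mmp8 and 0.941 for S100a8 and Mmp8. Mmp9 with S100a8 had r = 0.756 (exact permutation p = 0.133, adjusted p = 0.343) and rho = 0.406 (exact permutation p = 0.351, adjusted p = 0.479), and r was 0.163 without the same arrays. Camp and Mpo had r = 0.797 (exact permutation p = 0.0471, adjusted p = 0.339) and rho = 0.741 (exact permutation p = 0.0486, adjusted p = 0.350), and r was 0.518 without vehicle-treated females 1 and 2. All values of an array share its scaling, slide and RNA sample.

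The difference between Mmp8 and S100a9 on the same array did not overlap between the treatments. The pair was chosen after the values were seen, so its values are a description with no test. In dexamethasone-treated males its SD was 0.46 log2 units, against 2.11 for Mmp8 and 2.54 for S100a9 alone. The level of Mmp8 minus the level of S100a9 was -3.06, -3.66 and -3.96 in dexamethasone-treated males, against -7.59, -7.65 and -7.88 in vehicle-treated males. It was -5.00, -4.81 and -4.45 in dexamethasone-treated females, against -7.00, -7.12 and -8.03 in vehicle-treated females. The 6 dexamethasone-treated animals lay above the 6 vehicle-treated animals without overlap, and dexamethasone-treated male 3 was no longer apart from the other males of its group. Only changes of this difference can be read, since signals of different probes are not comparable as levels. The change was 4.14 in males and 2.63 in females, a mean of 3.39. Within slides it was 3.93 and 4.13 in males and 2.31 and 2.28 in females. Mmp8 was not well above background on 3 of these arrays, those of dexamethasone-treated male 1, vehicle-treated male 3 and vehicle-treated female 3. With normexp the mean change was 2.46 and the treatments overlapped.

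**Figure D3:**
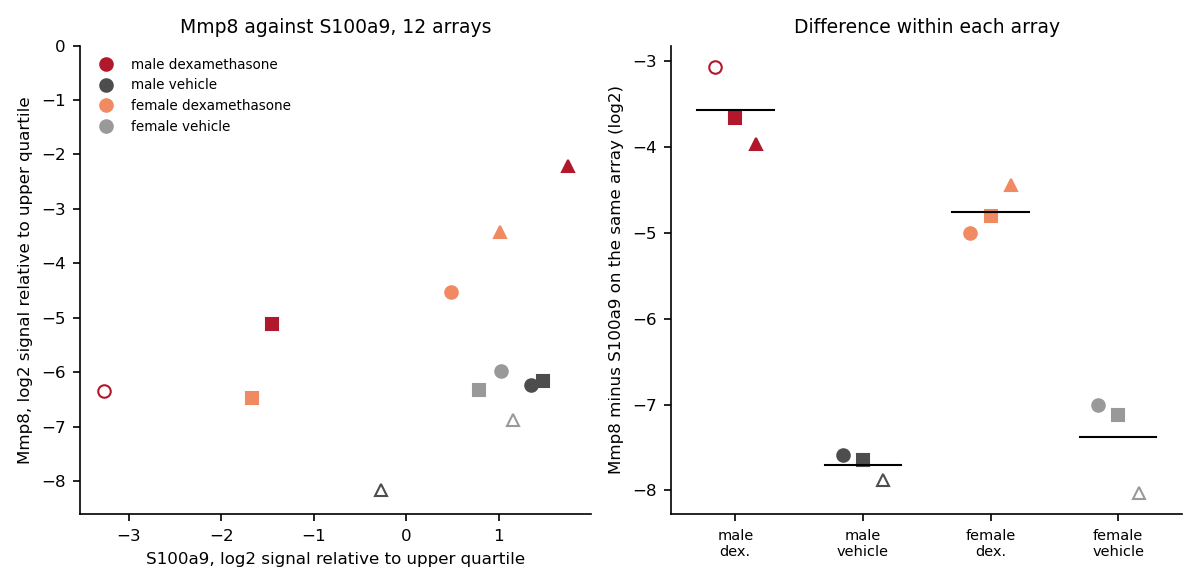
Left, the Mmp8 level against the S100a9 level on each of the 12 arrays (log2 relative to the array's upper quartile). Right, Mmp8 minus S100a9 on the same array by group, with lines at group means. Circles, squares and triangles are replicates 1, 2 and 3, and open symbols mark arrays on which Mmp8 was not well above background. The dexamethasone arrays run from -5.00 to -3.06 and the vehicle arrays from -8.03 to -7.00 in the right panel.

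The treatments did not overlap for 4 of the 36 within-array differences, which were taken over all 9 genes without the filter on dim probes and share genes with each other. No share over pairs of all genes is given, so this count is a description. Among single genes, 7.12% were lower after dexamethasone without overlap of the treatments. Csf3r, which is in the pairs with Mmp8 and Mpo below, was such a gene by itself. Mmp8 changed by 3.42 more than S100a8, with dexamethasone arrays at -1.35 to 1.90 and vehicle arrays at -4.00 to -2.86. With normexp this change was 1.07 and the treatments overlapped. In dexamethasone-treated males 1 and 2 (1.90 and 0.65) the S100a8 signal was not well above background, and in male 1 the Mmp8 signal was not either. Those 2 differences are therefore near the lower limit of measurement. Mmp8 changed by 2.68 more than Csf3r, or by 1.73 with normexp, and Mpo, measured well above background on every array as Csf3r was, changed by 1.10 more than Csf3r, or by 1.21 with normexp, and the treatments stayed apart under it in both. For Mpo minus Csf3r the dexamethasone arrays were at -2.87 to -1.86 and the vehicle arrays at -4.32 to -2.96. Male Mpo signals were 24.5 to 45.2 units after dexamethasone and 38.4 to 45.1 after vehicle, below the offset of 50 that normexp added. The change of S100a8 minus S100a9 was -0.03 in the mean of both sexes, with overlapping treatments, but 1.38 with normexp and 0.47 with local background subtraction.

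The 150 bases before the start of S100a8, S100a9 and Mmp8 are shown because these 3 genes had the highest pairwise correlations between animals, none of them past the adjustment. The sequences are RefSeq's on GRCm38.p6, at chr3:90668921-90669070 (plus strand), chr3:90695722-90695871 (minus strand) and chr9:7558279-7558428 (plus strand). Capitals mark matches on either strand to TTNNGNAA, a short form of the motif of C/EBP factors, which drive granulocyte genes.
S100a8: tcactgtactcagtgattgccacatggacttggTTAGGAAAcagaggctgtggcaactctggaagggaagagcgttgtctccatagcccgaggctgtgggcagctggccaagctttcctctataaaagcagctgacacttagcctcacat
S100a9: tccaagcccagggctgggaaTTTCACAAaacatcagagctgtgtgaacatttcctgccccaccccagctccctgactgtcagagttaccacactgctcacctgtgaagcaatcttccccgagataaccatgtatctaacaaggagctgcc
Mmp8: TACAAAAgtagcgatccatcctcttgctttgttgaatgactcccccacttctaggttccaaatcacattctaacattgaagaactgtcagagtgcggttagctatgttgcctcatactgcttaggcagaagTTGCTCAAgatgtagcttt
The first capitals of Mmp8 are the end of a match that begins just outside the printed stretch. Within 250 bases before the start, 5 of the 8 members found in the promoter table (S100a8, S100a9, Ngp, Mmp8 and Ltf) held a match, beside 36.8% of all 32851 windows of that length. ACANNNTGT, a loose form of the glucocorticoid response element read on both strands, was found in 0 of the 8 and in 5.84% of all windows. TATAAA was found in S100a8 alone, where it begins 30 bases before the start, and in 12.4% of all windows, and it does not overlap the C/EBP match. These are letter matches and not binding data.

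Other genes of the neutrophil programme were called in both directions, with Lcn2, Cd177 and Il1r2 higher and Prtn3, Cybb and Rac2 lower after dexamethasone. The lists used here and below were written from general knowledge with earlier results of these data known, and counts are for the mean of both sexes by limma with adjustment over all 19337 genes, of which 34.1% were called in either direction and 17.4% lower. Among other specific and gelatinase granule genes, 3 of 8 tested rose, 1 fell and 4 did not pass, with a median of 0.33. Lcn2, the iron-siderophore binding protein that hepatocytes also make, rose by log2 3.82 ± 0.62 (limma, adjusted p = 0.00107). Cd177, a neutrophil surface glycoprotein, read -3.61, -3.60 and -3.06 in dexamethasone-treated males, against -6.43, -5.13 and -5.80 in vehicle-treated males. In females Cd177 read -3.76, -4.21 and -3.69 after dexamethasone, against -5.79, -7.32 and -5.74 after vehicle. Its groups did not overlap, and it rose by 2.36 ± 0.43 in males and 2.40 ± 0.43 in females (limma, adjusted p = 0.00386 and 0.00660). Fcnb, Olfm4 and Itgb2l did not pass the filter. Among other azurophil granule genes, 2 of 3 tested fell: Prtn3, the protease proteinase 3, by -1.69 ± 0.32 and Ctsc, the protease that activates the granule serine proteases, by -0.66 ± 0.19 (limma, adjusted p = 0.00248 and 0.0223). Ctsg had a difference of -0.16 ± 0.28, and Elane did not pass the filter.

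Receptors and surface genes of mature neutrophils gave 4 higher and 3 lower of 18 tested, a share of calls near the 34.1% of all genes, with a median of 0.02. Il1r2, the decoy receptor for interleukin 1, rose by log2 2.16 ± 0.45 in males (limma, adjusted p = 0.00737) and was at least 3.96-fold higher in females (limma, adjusted p = 0.00968), where no vehicle array was well above background. Cd300lf, Tnfrsf1b and Fcgr4 rose by 1.24, 0.84 and 0.69. Itgam, the integrin chain CD11b, fell by 1.06 on the log2 scale (SE 0.24, limma, adjusted p = 0.00597), and so did Fpr2, a formyl peptide receptor, by 1.16. The Itgam probe was not well above background in dexamethasone-treated males 1 and 2 (-7.17 and -6.51), so the size of its fall in males is uncertain. Cxcr2 and Mrgpra2b did not pass the filter. Retnlg, a neutrophil-expressed resistin-like gene, read -8.54, -6.65 and -3.28 in dexamethasone-treated males, against -5.25, -5.49 and -5.73 in vehicle-treated males. Among dexamethasone-treated females it read -5.20, -7.61 and -4.71, so that the order of animals in both dexamethasone groups was that of S100a9. The Retnlg probe was not well above background in dexamethasone-treated males 1 and 2 and female 2, so those values are near the lower limit of measurement. Retnlg was named after its values were seen, and its mean effect was -0.69 ± 0.78 (limma, adjusted p = 0.539).

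The oxidase and effector genes gave 2 higher and 6 lower of 13 tested, with a median of -0.55, where 17.4% of all genes were called lower. Cybb, the catalytic subunit of the phagocyte NADPH oxidase, fell in males (-1.24 ± 0.16, limma, adjusted p = 0.000806) and in females (-0.62 ± 0.16, limma, adjusted p = 0.0305). Rac2, the GTPase that activates it, had a mean effect of -1.19 ± 0.18 (limma, adjusted p = 0.000707), and the subunits Ncf4 and Cyba had -1.06 and -0.75. Hdc, the histamine-forming enzyme, and Wfdc21 rose by 0.76 and 0.50. Of 7 granulocyte transcription factors, Cebpd and Cebpb rose by 1.79 ± 0.32 and 0.85 ± 0.17 (limma, adjusted p = 0.00192 and 0.00312), both also expressed by hepatocytes, and 5 did not pass. Many of these genes are shared with macrophages and other leukocytes.

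**Figure D4:**
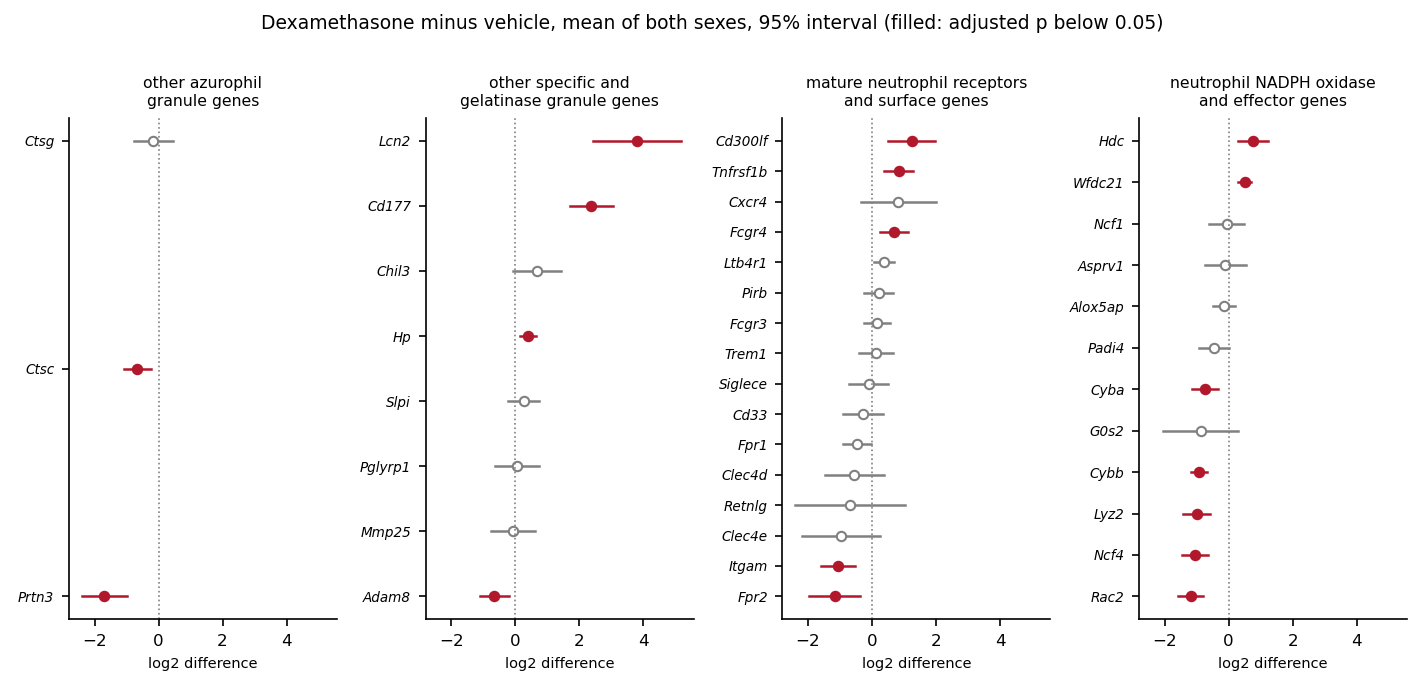
Log2 difference between dexamethasone and vehicle in the mean of both sexes, with 95% intervals from limma, for genes of 4 further neutrophil lists. Filled red points had an adjusted p below 0.05, and genes such as Il1r2 that have only a bound in 1 sex are left out. Lcn2 (3.82) and Cd177 (2.38) lie farthest to the right, and Prtn3 (-1.69) farthest to the left.

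Of 7 tested chemoattractants and growth factors, 5 fell and 2 did not pass, with a median of -1.08, where 17.4% of all genes were called lower. Cxcl12, which holds neutrophils in the marrow, fell in males (-1.17 ± 0.19, limma, adjusted p = 0.00237) and in females (-0.98 ± 0.19, limma, adjusted p = 0.00929). Tnf, an inflammatory cytokine, was at least 2.42-fold lower in dexamethasone-treated males, none of which was well above background (limma, adjusted p = 0.00760). Cxcl1, a ligand of the neutrophil receptor Cxcr2, had -1.94 ± 1.17 and did not pass (limma, adjusted p = 0.234), and Cxcl2, Cxcl3, Cxcl5, Csf3, Csf2, Il17a and C5ar1 did not pass the filter. Csf3 encodes the ligand of Csf3r. Of 11 adhesion genes, 7 fell, 1 rose and 3 did not pass, against the same 17.4% lower. Cd44, the hyaluronan receptor that holds neutrophils in liver sinusoids, fell by 1.78 on the log2 scale (SE 0.19, limma, adjusted p = 9.84e-05) and Icam2, an endothelial ligand of leukocyte integrins, by 1.48 (SE 0.17, limma, adjusted p = 0.000156), while Vcam1 rose by 1.50 ± 0.30 (limma, adjusted p = 0.00354). Among 8 receptors and partners of S100a8 and S100a9, 2 fell: Tlr2 (-1.20 ± 0.26) and the glucocorticoid-linked Anxa1 (-0.42 ± 0.11; limma, adjusted p = 0.00486 and 0.0154). Tlr4, the receptor best known for calprotectin, had -0.32 ± 0.13 (limma, adjusted p = 0.0764).

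Markers shared by all leukocytes moved with treatment too. Of 12 pan-leukocyte markers, all well above background on every array, 9 fell and 0 rose in the mean of both sexes, with a median of -0.67, where 17.4% of all genes were called lower. Their summed signal, in multiples of the array's upper quartile, was 9.88 to 12.1 in dexamethasone-treated males, against 16.3 to 22.6 in vehicle-treated males, and 14.2 to 19.0 in dexamethasone-treated females, against 21.4 to 30.2 in vehicle-treated females. Dexamethasone-treated male 3, the animal high in S100a8 and S100a9, stood at 10.5, inside its group. Of 18 monocyte and macrophage markers 7 fell and 2 rose, among them Cd163 by 1.47, of 16 T and NK cell markers 5 fell and 1 rose, a share of calls near the 34.1% of all genes, and of 8 B cell markers 4 fell and 0 rose. Ms4a1 (CD20) fell by 2.67 on the log2 scale. The summed signal of the monocyte and macrophage list, whose cells can also carry Csf3r, was 80.2 to 122.8 in dexamethasone-treated males, against 97.4 to 139.2 in vehicle-treated males, and 124.4 to 227.4 in dexamethasone-treated females, against 147.0 to 224.0 in vehicle-treated females. All 18 passed the filter. The part of these cell types in the fall of Csf3r was not tested.

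By a fixed rule, the 3 genes whose deviations from the group means were most like those of S100a9, Mpo and Csf3r were taken from 13895 genes over the 12 arrays. For S100a9, which stood in for S100a8 because it was measured on all arrays, they were Gnat1, Fga and Slc39a1, with Pearson's r of 0.961, 0.956 and 0.955. For Mpo, which stood in for Ngp, they were Hacd3, Macf1 and Il15ra (0.962, 0.959 and 0.937), and for Csf3r they were Olfr726, Olfr342 and Med18 (0.954, 0.943 and 0.936). None of these genes is in a neutrophil list, and the highest of so many correlations over 12 arrays is high by selection.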

How the data were processed

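Per the labels' protocols, total liver RNA (500 ng) of each of 12 animals was labelled with Cy3 and hybridized to 1 Agilent array. The authors read intensities with Agilent Feature Extraction 9.5, per the submitters' processing notes, and the processed signal, an intensity background-subtracted by that software per the file headers, was used, with its flags for outliers, background and saturation as deposited. No probe of the 9 genes was saturated. The deposited series values were intensities equal to the processed signal for every spot.

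Processed signals were taken to log2, and the 75th percentile of the 43379 spots that were no controls was subtracted on each array. A probe's spots without outlier flags were averaged. Probes entered the fit (28842 of 41174) where at least 0.5 of their spots were well above background on all 3 arrays of some group. The brightest probe stood for a gene, giving 19337 genes. Names were updated through RefSeq (GRCm38.p6): 23082 probes matched on accession, 6582 on symbol and 3073 on synonym, while 8437 stayed as in the file. A model of 4 group means was fitted to all 12 arrays in limma 3.58.1 (R 4.3.3) with empirical Bayes moderation and Benjamini-Hochberg adjustment over all genes, threshold 0.05. Differences are dexamethasone minus vehicle and female minus male. The fit was tested on simulated data for the female comparison (19337 genes). Of 100 genes changed by log2 1, 48% were called, and of 100 changed by 2, 86%, while 9 unchanged genes were called too. The changed genes were drawn at random, each with its own spread. These rates therefore do not hold for widely spread genes such as S100a8, S100a9 and Mmp8. Permutation tests used scipy 1.17.1.

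Members and lists were chosen with earlier results of these data known. Named genes are all 9 members, the 2 genes of each list with the smallest p in the mean of both sexes, and others named with their values as members of a count. Some genes of these lists enter the counts and are not reported here by name. Replicate numbers did not pair animals: deviations of same-numbered male arrays correlated at -0.20 to -0.14 and of female arrays at -0.11 to 0.33. Alternatives covered background correction, scaling, filters, probe choice, array weights, slide and replicate blocks, and each array left out. Labels describe the replicates as biological.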

Additional observations from a re-analysis of the deposited data

How the results depend on the processing

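The fall of Csf3r, the 0 calls in females and the 0 calls between the sexes were recomputed under each alternative. The number of genes of the 9 called in males was 1, but 0 with normexp background correction, and 1 to 4 when each array was left out. In the mean of both sexes it was 1, but 0 with normexp, 2 with median scaling, 2 with all probes of a gene averaged, and again 1 to 4 when each array was left out. The 4 arose without dexamethasone-treated male 3 (S100a8, S100a9, Mmp9 and Csf3r), and leaving out dexamethasone-treated male 1 or female 2 gave 2 (Csf3r and Mmp8). Counts in females and between the sexes stayed at 0 in all of these. Mmp8 minus S100a9 changed by 2.46 with normexp, where the treatments overlapped, by 2.94 with local background subtraction (chosen after seeing the data), and by 3.23 to 3.49 with each array left out.

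The median difference of all genes in males, females and their mean was 0.26, 0.24 and 0.25 under normexp, against 0.01, 0.02 and 0.02 in the main fit, and dim genes changed sign under it: S100a8 (0.39 in males, 0.18 in females, 0.28 in the mean), Mmp9 (0.78, 0.66 and 0.72), Ltf (0.86 in males, 0.88 in the mean) and Mpo (0.81 in males). In males the processed signals of the brighter Mmp9 probe were 3.59 to 18.8 units after dexamethasone and 15.8 to 35.9 after vehicle. These lie below the offset of 50 units that normexp added. Whether the offset gave the sign changes was not tested. Differences close to 0 also changed sign: Mpo in males (0.0047 with quantile and with median scaling, 0.00035 with the slide block, 0.059 with local subtraction, -0.32 to 0.15 with arrays left out), and Ltf in the mean (0.093 with the mean of probes, 0.092 with local subtraction, -0.41 to 0.16 with arrays left out), and S100a8 in females ran from -1.23 to 0.049, the higher value without dexamethasone-treated female 2. With a replicate block the counts stayed at 1 in males and 1 in the mean. Csf3r then had an adjusted p of 0.017 in males (limma). Same-numbered dexamethasone and vehicle arrays of a sex shared a slide only for females 1 (slide 2) and females 2 (slide 1). Over all genes, normexp gave 934 calls in males against 4359 in the main fit. The scan was not run as a block, since all arrays were scanned on 1 day with 1 scan per slide, so a scan block equals the slide block. Camp, Ngp, Ltf and Mmp8 lay near background on many arrays, which limits what can be read from them.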

Other observations

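Markers of other granulocytes, platelets and red cells gave 2 calls in the mean of both sexes, where 34.1% of all genes were called. Of 6 tested markers of eosinophils, basophils and mast cells, 0 were called by limma in males, in females or in the mean of both sexes, where the median was -0.09, and Prg2, Epx, Siglecf, Mcpt8, Ms4a2 and Cpa3 did not pass the filter. The ribonucleases Ear1 and Ear6 had mean effects of -0.45 ± 0.26 and -0.44 ± 0.25 (limma, adjusted p = 0.207 each). Of 7 platelet and megakaryocyte markers, 1 rose, the platelet glycoprotein Gp5 (0.40 ± 0.14, limma, adjusted p = 0.0418), and Pf4 had -0.30 ± 0.13 (limma, adjusted p = 0.112). Of 5 erythroid markers, 1 fell, the transcription factor Klf1 (-0.44 ± 0.11, limma, adjusted p = 0.0108), and the globin gene Hba-a1 had 0.26 ± 0.22 (limma, adjusted p = 0.392).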
